A study of Mus musculus with 5 samples.

Results

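The cells described here are T cells of mouse skin that carried RNA of the CD3 complex and of the α or β chain of the T-cell receptor, with no UMI of Trdc, the constant gene of the δ chain, and no UMI of Foxp3, the transcription factor of regulatory T cells. A UMI is 1 counted RNA molecule, and the measurement was droplet-based single-cell RNA sequencing. A barcode was kept when it had 200 or more detected genes and mitochondrial UMIs made up less than 20% of its total. A kept barcode was taken where Cd3d, Cd3e and Cd3g together held at least 2 UMIs, Trac, Trbc1 and Trbc2 together held at least 2, and the macrophage genes C1qa, C1qb and C1qc together held at most 2. The rule found 202 of 2652 kept barcodes in lesional whole skin, 93 of 4991 in imiquimod dermis and 26 of 521 in untreated dermis, which is 321 of 8164 in these 3 libraries; all 5 libraries of the series held 11942 kept barcodes. The cells are called Trac/Trbc T cells below, after the rule, because part of them carried γ-chain RNA. The CD3, Trac, Trbc, Trdc, Foxp3 and C1q levels chose the cells, so they are given as a description and support nothing.

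All mice were C57BL/6. Lesional whole skin was from K5. Pp6fl/fl mice aged 18 weeks, with psoriasis-like lesions; fl/fl marks a gene flanked by recombination sites, and the labels do not spell out the recombinase or the cells in which it acts. Imiquimod dermis was from wild-type mice aged 10 weeks that had imiquimod, a toll-like receptor agonist, applied to the ear on 5 consecutive days, and untreated dermis was from wild-type mice aged 10 weeks. Skin was digested with enzymes and dead cells were removed by sorting. Lesional whole skin differed from untreated dermis in genotype, age, tissue layer and lesion at once, and from imiquimod dermis in genotype, age, tissue layer and treatment, and the parts of these differences cannot be told apart. Both inflamed skins were set against the same untreated library. Each group was 1 library, so no difference between conditions has a replicate check and no test was made; cells of 1 library are not replicates. The labels give neither the number of mice per library nor their sex.

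The Trac/Trbc T cells made up 7.62% of kept barcodes in lesional whole skin (95% exact binomial interval 6.64 to 8.69), 1.86% in imiquimod dermis (1.51 to 2.28) and 4.99% in untreated dermis (3.29 to 7.23). These shares depend on the dissociation, the tissue layer and the other cells present. Their summed UMIs were 1129570, 629406 and 126193 in that order of libraries, so that 1 UMI was worth 0.885, 1.59 and 7.92 CPM, counts per 1000000 summed UMIs of the cells, and a count of 0 allows up to 2.66, 4.77 and 23.8 CPM, the level of 3 counts. The median cell held 4609 UMIs in lesional whole skin, 5787 in imiquimod dermis and 4227 in untreated dermis, and a median of 4.07%, 2.21% and 3.11% of its UMIs were mitochondrial. Intervals below are 95% intervals of counting error only. Among the lesional cells 77 held UMIs of the female-specific RNA Xist only, 69 of Y-linked genes only and 4 of both, whereas no Trac/Trbc T cell of either dermis library held an Xist UMI. No barcode of the lesional library recurred in a dermis library, and 126 of its 937 different 7-base barcode starts were among the 480 of imiquimod dermis, whereas all 332 starts of untreated dermis were. Whether the lesional library was prepared otherwise than the dermis libraries was not tested. Imiquimod and untreated dermis shared 5 barcodes, none of them a Trac/Trbc T cell.

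Conventional T cells recognise peptides on MHC molecules through a receptor of an α and a β chain, helped by the coreceptors CD4, which binds MHC class II, or CD8, which binds MHC class I. In skin they patrol or reside in the dermis and, by the cytokines they secrete, are grouped into type 1 cells with interferon-γ and cytotoxic granules, type 17 cells with IL-17A, IL-17F and IL-22, and type 2 cells with IL-4 and IL-13. γδ T cells of mouse dermis are a further well-known source of IL-17, and the IL-17 and IL-22 axis is the one targeted in human psoriasis.

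The promoters of the 3 type 17 cytokine genes are printed because the results on IL-17 and IL-22 turn on these genes. Il17a lies at chr1:20730905-20734496 on the plus strand, Il17f at chr1:20777146-20790617 on the minus strand and Il22 at chr10:118204942-118210047 on the plus strand of the mm10 build. The sequences are RefSeq promoters of build GRCm38.p6, from 250 bases before to 50 bases after the annotated start, 5′ to 3′ on the gene strand, at chr1:20730655-20730954, chr1:20784221-20784520 and chr10:118204714-118205013. The annotated starts are not all the ends of the gene spans above, and the Il17f window lies wholly inside the Il17f span. Capitals mark AGGTCA, or TGACCT where it reads on the other strand, the core element bound by ROR nuclear receptors.
Il17a: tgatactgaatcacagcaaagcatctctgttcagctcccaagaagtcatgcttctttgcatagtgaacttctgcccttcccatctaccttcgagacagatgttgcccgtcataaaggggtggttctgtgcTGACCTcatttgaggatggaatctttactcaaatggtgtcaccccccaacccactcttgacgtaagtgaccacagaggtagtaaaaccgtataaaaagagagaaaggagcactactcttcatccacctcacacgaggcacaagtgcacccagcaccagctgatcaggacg
Il17f: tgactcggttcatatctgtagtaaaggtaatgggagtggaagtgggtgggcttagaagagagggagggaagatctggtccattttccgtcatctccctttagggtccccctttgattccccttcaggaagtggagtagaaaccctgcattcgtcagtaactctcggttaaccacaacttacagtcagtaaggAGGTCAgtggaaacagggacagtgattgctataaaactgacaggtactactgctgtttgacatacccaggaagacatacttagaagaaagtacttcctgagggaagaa
Il22: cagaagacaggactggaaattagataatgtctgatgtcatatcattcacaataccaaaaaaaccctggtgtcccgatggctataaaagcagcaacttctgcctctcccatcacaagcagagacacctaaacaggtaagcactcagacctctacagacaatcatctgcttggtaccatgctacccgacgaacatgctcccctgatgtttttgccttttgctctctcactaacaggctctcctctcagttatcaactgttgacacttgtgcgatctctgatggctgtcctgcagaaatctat
Il17a held 1 match, on the other strand, whose first base lay 120 bases before the start, and Il17f held 1 on the gene strand, 58 bases before the start; the Il22 window held none. Of 32851 promoters of the same length 5340 (16.3%) held the element on either strand. A match is a description of these letters and says nothing about binding here.

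Part of the cells carried RNA of γ-chain constant genes, which the rule did not use. All 5 αβ T-cell markers were detected, and Trac, the α-chain constant gene at chr14:54220521-54224206, had 489 CPM in lesional whole skin, 359 CPM in imiquimod dermis and 650 CPM in untreated dermis. Per UMI of the β-chain constant genes Trbc1 and Trbc2, the cells held 0.439, 0.187 and 0.566 Trac UMIs in that order. In imiquimod dermis Foxp3 T cells, chosen by the same rule but for at least 1 Foxp3 UMI, held 0.534, and T cells with Trdc UMIs held 0.0296. These Trac and Trbc values come from genes of the rule and are a description only. Trac was not detected in 35 of 202 lesional cells (17.3%), 26 of 93 imiquimod cells (28.0%) and 5 of 26 untreated cells (19.2%). γ-chain constant genes had a UMI in 41 of 202 lesional cells (20.3%), 24 of 93 imiquimod cells (25.8%) and 8 of 26 untreated cells (30.8%), against 0 of 22, 0 of 40 and 0 of 2 Foxp3 T cells and 137 of 146, 62 of 77 and 40 of 49 Trdc T cells. The γ-chain share therefore lay between those of the Foxp3 and the Trdc T cells in each library. Trbc1 and Trbc2 transcripts were 95.6% identical over 521 aligned bases, so reads may be split between them and they are given as a sum.

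The costimulatory receptor gene Cd28, which the rule did not use, had 355 CPM in lesional whole skin, 148 CPM in imiquimod dermis and 444 CPM in untreated dermis, against 5.09, 8.39 and 28.9 CPM in the Trdc T cells of the same libraries. Cd6, a surface regulator of T-cell activation, had 163, 68.3 and 79.2 CPM, against 20.4, 9.78 and 4.81 CPM in Trdc T cells. The Trac/Trbc T cells held more of both than the Trdc T cells in every library, and imiquimod dermis had the lowest level of both. At least 1 UMI of a coreceptor gene, Cd4, Cd8a or Cd8b1, was found in 107 of 202 lesional cells (53.0%), 32 of 93 imiquimod cells (34.4%) and 5 of 26 untreated cells (19.2%), against 3 of 146, 2 of 77 and 0 of 49 Trdc T cells.

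**Figure D1:**
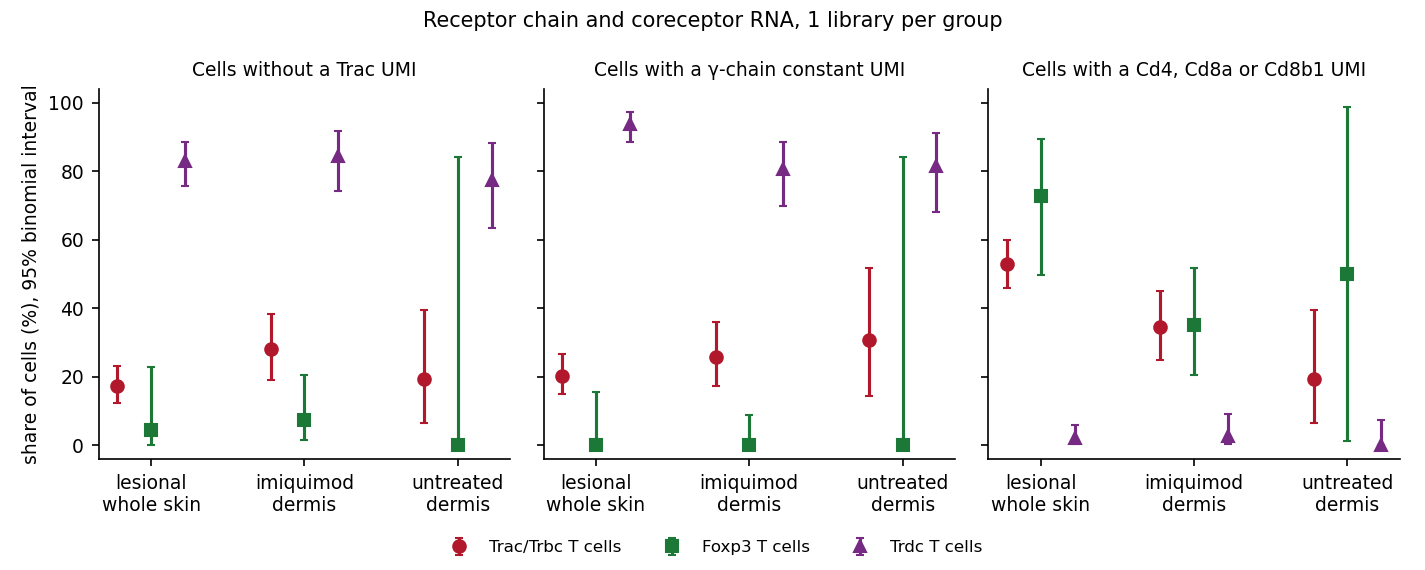
Shares of cells (%, y axis, with 95% exact binomial intervals) without a Trac UMI, with a γ-chain constant UMI and with a coreceptor UMI, for Trac/Trbc, Foxp3 and Trdc T cells of the 3 libraries. Trac/Trbc T cells sit between the Foxp3 and the Trdc T cells in the γ-chain panel, at 20.3% in lesional whole skin, 25.8% in imiquimod dermis and 30.8% in untreated dermis; Foxp3 T cells of untreated dermis are only 2 cells.

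Values next to the thresholds show where the rule was tight. In imiquimod dermis 19 of the cells held 2 C1q UMIs, the most allowed, and 18 further barcodes failed only by holding 3, whereas no lesional or untreated barcode stood on either side of that limit. Single Foxp3 UMIs kept out 6 lesional, 20 imiquimod and 1 untreated barcodes, and single Trdc UMIs kept out 4, 7 and 2. With exactly 2 receptor UMIs, 30 lesional, 5 imiquimod and 4 untreated cells stood just inside, and with 1 UMI 16, 8 and 1 barcodes stood just outside.

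Cd4 and Cd8a cells, those with a UMI of one coreceptor gene and none of the other, were most frequent in lesional whole skin. Cd8a cells were 26 of 202 lesional cells (12.9%, 8.58 to 18.3), 4 of 93 imiquimod cells (4.30%, 1.18 to 10.6) and 1 of 26 untreated cells (3.85%, 0.0973 to 19.6). Cd4 cells were 76 of 202 lesional cells (37.6%, 30.9 to 44.7), 25 of 93 imiquimod cells (26.9%, 18.2 to 37.1) and 2 of 26 untreated cells (7.69%, 0.946 to 25.1). No cell held both, and 100, 64 and 23 cells held neither. With each cell thinned to 1500 UMIs, and 3 lesional, 10 imiquimod and 2 untreated shallower cells left out, Cd4 was detected in 18.6%, 7.23% and 4.17% of cells.

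For comparison, C1q macrophages of the same libraries held a Cd8a UMI in 0 of 147, 4 of 809 and 0 of 172 cells and a Cd4 UMI in 6 of 147 (4.08%), 43 of 809 (5.32%) and 33 of 172 (19.2%), at median depths of 11427, 9714 and 5231.5 UMIs. The Cd4 share of the untreated T cells has an interval that covers the share of its macrophages, so it is not read as expression; whether the macrophage UMIs are free RNA was not tested. As a level, Cd8a (chr6:71373427-71379173) had 88.5 CPM in lesional cells, 9.53 CPM in imiquimod cells and 7.92 CPM in untreated cells. Lesional Cd8a was 9.29-fold the imiquimod level (interval 4.12 to 25.9) and 11.2-fold the untreated level, which was 1 UMI (1.96 to 446). Cd4 (chr6:124864692-124888221) had 146, 57.2 and 31.7 CPM, and the lesional level was 2.55-fold the imiquimod level (1.77 to 3.77) and 4.61-fold the untreated one (1.77 to 17.1). A ratio is called higher or lower below only where its whole interval lay beyond 1.5-fold, and both coreceptors were higher in lesional cells in both comparisons. Cd8b1, the CD8 β chain, had 77.9, 42.9 and 15.8 CPM and passed in neither. A γ-chain constant UMI was found in 8 of 26 lesional Cd8a cells, 6 of 76 lesional Cd4 cells, 2 of 25 imiquimod Cd4 cells, and 27 of 100, 21 of 64 and 7 of 23 cells with neither a Cd4 nor a Cd8a UMI.

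RNA of other cell types was unequal between the libraries and stands beside each result that follows. The 7 neutrophil markers summed to 47.8 CPM in lesional cells, 5626 CPM in imiquimod cells and 15.8 CPM in untreated cells, with 4, 7 and 1 of the 7 detected; Csf3r, Cxcr2 and Ly6g were at 0 in lesional cells. In imiquimod dermis 84 of the 93 cells held at least 5 such UMIs and 1 cell held 48.8% of them. The 10 macrophage markers summed to 561, 1222 and 618 CPM and the 9 natural killer and innate lymphoid markers to 245, 1444 and 325 CPM, with Ncr1 at 0 in lesional and untreated cells. Imiquimod dermis therefore had the highest sum of each of these lists. Its natural killer and innate lymphoid sum was mostly Tyrobp and Fcer1g, at 729 and 670 CPM. Of the other markers only Ncr1, at 9.53 CPM, was highest there. Kit and Eomes were highest in lesional cells, at 46.0 and 27.4 CPM against 1.59 CPM each in imiquimod cells. Klrb1c, Klre1 and Il1rl1 were not highest in imiquimod cells either, and Klra8 was not detected. Keratinocyte markers summed to 2929, 47.7 and 222 CPM, of which 1 lesional cell held 58.6%, and dendritic markers to 125, 985 and 9010 CPM, of which 1 untreated cell held 92.3%. Regulatory T-cell markers other than Foxp3 summed to 589, 1552 and 840 CPM. The part of this RNA in the differences below was not tested, except where values without it are given.

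Type 17 cytokine RNA was highest in imiquimod dermis. Il17a had 276 CPM in lesional cells, 904 CPM in imiquimod cells and no UMI in untreated cells; Il17f had 85.9, 1988 and 23.8 CPM. Il22 had 1.77 CPM in lesional cells, from 2 UMIs, 3808 CPM in imiquimod cells, from 2397 UMIs in 29 cells, and 31.7 CPM in untreated cells, from 4 UMIs. Lesional cells thus held Il17a and Il17f with almost no Il22, and imiquimod cells held all 3 genes. At least 1 Il22 UMI was also found in 159 of 809 imiquimod macrophages (19.7%), against 31.2% of the T cells. Type 17 cytokine cells are therefore counted below from 3 UMIs of the 3 genes together. Other counts of cells holding a gene are from 1 UMI up unless a limit is given. In summed UMIs against untreated cells, Il17a was at least 38.0-fold higher, Il17f 83.6-fold higher (28.5 to 406) and Il22 120-fold higher (46.9 to 441) in imiquimod cells. Il17a was at least 11.6-fold higher in lesional cells; both Il17a bounds take the floor of 3 counts for untreated cells. UMIs of 1 cell are not independent, lesional Il17a was held by 22 of 202 cells, and 26 untreated cells are few. The lesional bound therefore does not show that a smaller share of untreated cells held Il17a.

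The imiquimod signal sat in few cells. At least 3 UMIs of the 3 cytokines together were held by 18 of 202 lesional cells (8.91%, 5.37 to 13.7), 23 of 93 imiquimod cells (24.7%, 16.4 to 34.8) and 0 of 26 untreated cells (0 to 13.2%), against 0 of 147, 6 of 809 (0.742%) and 0 of 172 macrophages. One imiquimod cell held 381 of 569 Il17a UMIs and 512 of 1251 Il17f UMIs. The 24 imiquimod cells with a γ-chain constant UMI held 559 of 569 Il17a, 1042 of 1251 Il17f and 1738 of 2397 Il22 UMIs, and 14 of the 23 cytokine cells were among them. Imiquimod cells with γ-chain RNA had 2359 CPM of Il17a and 7333 CPM of Il22, against 25.5 and 1679 CPM in the 69 cells without it. Blk, a kinase gene known from IL-17-secreting γδ T cells, had 135 CPM in the cells with γ-chain RNA, against 17.8 CPM in those without it. In lesional skin the 41 cells with γ-chain RNA had 557 CPM of Il17a, in 6 cells, against 203 CPM in the 161 without it, in 16 cells. Lesional Il17f went the other way, with 47.2 CPM, all from 1 cell, against 95.9 CPM in 19 cells. Of the 18 lesional cytokine cells 4 carried γ-chain RNA, 8 carried Cd4 and 14 carried Trac. The levels in the γ-chain groups are descriptions of cells split after the data had been seen.

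The comparison of the inflamed skins for Il17a depended on which cells were counted. Over all Trac/Trbc T cells Il17a was 0.305-fold the imiquimod level in lesional cells (0.265 to 0.351), a log2 ratio of -1.69 that was -0.39 without the highest cell of each library. Among cells without γ-chain RNA the log2 ratio was 2.77, among those without C1q RNA 0.47, and among Cd4 cells 5.67, so the direction reversed. Il17f was 0.0432-fold (0.0348 to 0.0532) and Il22 0.000465-fold (5.63e-05 to 0.00168) the imiquimod level in lesional cells. Il17f reversed among Cd4 cells, with a log2 ratio of 2.43, and Il22 kept its direction under every alternative tried.

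**Figure D2:**
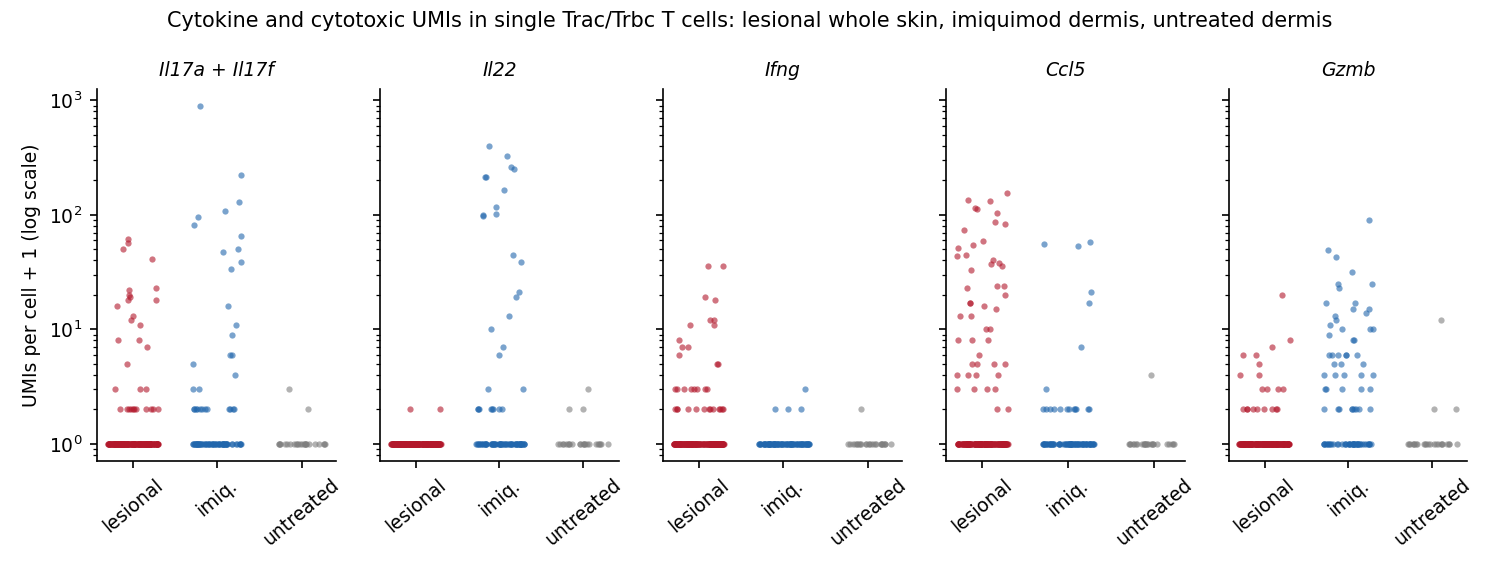
UMIs per cell plus 1 (log-scale y axis) of Il17a plus Il17f, Il22, Ifng, Ccl5 and Gzmb in each Trac/Trbc T cell of lesional whole skin, imiquimod dermis and untreated dermis, each point 1 cell. Il22 is held by 29 imiquimod cells and by 2 lesional cells with 1 UMI each, while Ifng is held by 35 lesional, 4 imiquimod and 1 untreated cells; 1 imiquimod cell stands alone at the top of the Il17a plus Il17f panel.

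Of the 18 genes of the type 17 list, 17 were measured well enough in imiquimod over untreated cells, with at least 10 UMIs in both together and 10 CPM in either. Of these, 5 were higher and 1 lower in imiquimod cells, where 2.30% and 4.74% of all 5991 genes measured were; the list's median log2 ratio was 0.52 and that of all genes -0.11. Beside the 3 cytokines these were Batf, a transcription factor of type 17 differentiation, with 187 CPM in imiquimod and 47.5 CPM in untreated cells, and Ccr6, the receptor for CCL20, with 63.6 and 0 CPM, at least 2.67-fold higher. Rora, a ROR family receptor gene, was lower, with 172 CPM against 555 CPM. In lesional over untreated cells 2 of 17 were higher, Il17a and the channel gene Aqp3, and none was lower, where 2.86% and 2.99% of all 8253 genes were; the medians were 0.44 for the list and 0.23 for all genes. In lesional over imiquimod cells 5 of 18 were higher and 6 lower, where 14.6% and 4.99% of all 8355 genes were, with medians of -0.15 and 0.43. The 5 higher were Maf, a factor expressed in IL-17-secreting T cells, with 458 CPM against 124 CPM, Rora, Aqp3, Il18r1 and Stat3, and the 6 lower were the 3 cytokines, Batf, Serpinb1a and Csf2.

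Type 1 and cytotoxic genes split by library, with Ifng and Ccl5 highest in lesional skin and granzymes B and A in imiquimod dermis. Ifng, interferon-γ, had 184 CPM in lesional cells, 7.94 CPM in imiquimod cells and 7.92 CPM in untreated cells, from 208, 5 and 1 UMIs. At least 1 Ifng UMI was held by 35 lesional cells, 4 imiquimod cells and 1 untreated cell, and by 0, 5 and 0 macrophages. The lesional level was 23.2-fold the imiquimod level (9.78 to 72.1) and 23.2-fold the untreated level (4.13 to 922). Of the 35 lesional Ifng cells 7 were Cd8a cells, 13 Cd4 cells and 6 carried γ-chain RNA, and none was among the 18 type 17 cytokine cells. Ccl5, a chemokine gene of memory and cytotoxic T cells, had 1478, 350 and 23.8 CPM, 4.23-fold higher in lesional than in imiquimod cells (3.67 to 4.89).

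Gzmb, granzyme B, had 61.1 CPM in lesional cells, 813 CPM in imiquimod cells and 103 CPM in untreated cells; at least 3 UMIs were held by 8 of 202, 35 of 93 and 1 of 26 cells, and by 0, 2 and 0 macrophages. It was 7.90-fold higher in imiquimod than in untreated cells (4.58 to 14.9), where 1 untreated cell held 11 of 13 UMIs, and 0.0751-fold the imiquimod level in lesional cells (0.0575 to 0.0967). The 35 imiquimod Gzmb cells comprised 11 Cd4 cells, 1 Cd8a cell and 9 cells with γ-chain RNA. Gzma, granzyme A, had 32.8, 305 and 0 CPM, and 1 of the 8 imiquimod cells with it held 112 of 192 UMIs; its lesional over imiquimod direction reversed, to a log2 ratio of 1.21, among cells with Trac. Foxp3 T cells of imiquimod dermis had 1923 CPM of Gzmb.

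Of the 23 genes on the type 1 and cytotoxic list, 7 of the 15 measured were higher and 3 lower in imiquimod over untreated cells; over all genes 2.30% were higher and 4.74% lower. The list's median log2 ratio was 2.42, or 1.34 with genes at 0 UMIs set at their bound. The higher were Gzmb, Gzma, Ccl5, Ccl3, Ccl4 and the killer-cell lectin-like receptor genes Klrg1 and Klrd1, of which Ccl3 and Ccl4, with 256 and 276 CPM in imiquimod cells, had 1146 and 1268 CPM in CD3-free barcodes of that library. The lower were Klrk1, which encodes the activating receptor NKG2D, with 63.6 CPM against 317 CPM, Tnf and Stat4. In lesional over untreated cells 6 of 20 were higher and none lower, against 2.86% and 2.99% of all genes, with a median of 1.79, or 0.36 at the bound: Ifng, Ccl5, Ctsw, Gzmc, Klrd1 and Cxcr3, the receptor for the interferon-induced chemokines, with 65.5 and 0 CPM, at least 2.76-fold higher. In lesional over imiquimod cells 11 of 21 were higher and 5 lower, against 14.6% and 4.99% of all genes, with a median of 1.09. The 11 included the T-box factors Tbx21, with 44.3 and 1.59 CPM, and Eomes, with 27.4 and 1.59 CPM, and Klrk1, with 238 and 63.6 CPM, and the 5 lower were Gzmb, Gzma, Klrg1, Ccl3 and Ccl4. Gzmc, among the 11, rested on 5 lesional cells and reversed without the lesional Xist cells, to a log2 ratio of -1.66.

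**Figure D3:**
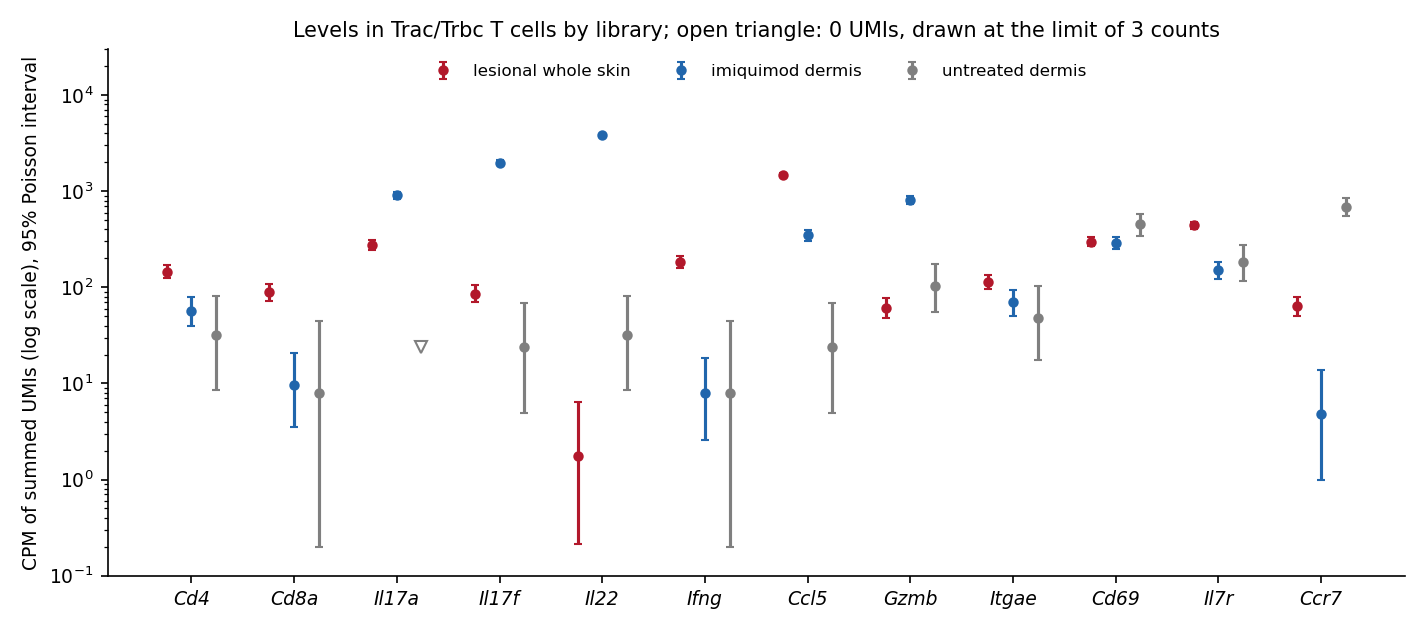
CPM of summed UMIs (log-scale y axis, 95% Poisson intervals) of 12 genes in Trac/Trbc T cells of lesional whole skin, imiquimod dermis and untreated dermis; an open triangle marks 0 UMIs, drawn at the limit of 3 counts. Ifng and Ccl5 are highest in lesional cells, at 184 and 1478 CPM, Il22 and Gzmb in imiquimod cells, at 3808 and 813 CPM, and the untreated intervals are the widest.

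Type 2 cytokine RNA was scarce. Il4 had 0, 1 and 0 UMIs in lesional, imiquimod and untreated cells, and Il13 had 3, 2 and 12 UMIs, of which 1 untreated cell held 10. The level of Il13 was therefore 2.66, 3.18 and 95.1 CPM, and the untreated level rests on that cell. Areg, amphiregulin, an epidermal growth factor receptor ligand, had 274, 316 and 79.2 CPM and was higher in both inflamed skins, 3.45-fold (1.85 to 7.27) and 3.99-fold (2.12 to 8.45). Ccr8, a skin-homing chemokine receptor gene, had 5.31, 6.36 and 143 CPM and was lower in both. Of the list's measured genes, 1 of 9 was higher and 2 lower in lesional over untreated cells, 1 of 8 and 2 in imiquimod over untreated cells, and 0 of 7 and 1, Il10, in lesional over imiquimod cells. Over all genes the higher and lower shares were 2.86% and 2.99%, 2.30% and 4.74%, and 14.6% and 4.99% in the same comparisons.

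Genes of naive and central memory T cells separated the inflamed skins. In lesional over imiquimod cells 9 of 11 measured were higher and 2 lower, where 14.6% and 4.99% of all genes were, with a median log2 ratio of 1.52 against 0.43 over all genes. Among Cd4 cells alone 1 of 9 was higher and 1 lower, where 5.47% and 3.21% of all 6070 genes were. Il7r, the receptor for IL-7, had 442 CPM in lesional cells, 151 CPM in imiquimod cells and 182 CPM in untreated cells, and Tcf7, a factor of naive and memory T cells, had 152, 42.9 and 135 CPM. Lef1, a related factor, had 39.8, 4.77 and 7.92 CPM, and its lesional over imiquimod ratio was 8.36 (2.68 to 42.0), but among Cd4 cells alone it reversed, to a log2 ratio of -0.020. Igfbp4, an insulin-like growth factor binding protein gene and 1 of the 2 lower ones, had 45.1 CPM in lesional and 113 CPM in imiquimod cells. Over all Trac/Trbc T cells the lesional library thus had the highest Il7r, Tcf7 and Lef1 levels, with Tcf7 near the untreated level. Ccr7, the lymph-node homing receptor, had 63.7, 4.77 and 689 CPM, but 61 of 87 untreated UMIs were in 1 cell, which also held most of the dendritic marker UMIs. In imiquimod over untreated cells 1 of 8 measured was higher, Igfbp4, and 3 lower, Ccr7, Tcf7 and Satb1, against 2.30% and 4.74% of all genes, with a median of -0.89. Igfbp4 reversed without the cells holding RNA of another type, to a log2 ratio of -0.77. In lesional over untreated cells Il7r and Klf2 were higher and Ccr7 lower of 10, against 2.86% and 2.99% of all genes.

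Tissue-residency genes were not uniformly raised in the inflamed skins. Cd69, a retention receptor, had 297 CPM in lesional cells, 289 CPM in imiquimod cells and 452 CPM in untreated cells. Itgae, the αE integrin that binds E-cadherin, had 114, 69.9 and 47.5 CPM, with intervals of the ratio that passed 1.5-fold in no comparison. Cxcr6, a chemokine receptor gene of resident T cells, had 444, 291 and 888 CPM and Crem, a cyclic-AMP responsive factor, had 187, 132 and 1474 CPM, both lower in both inflamed skins than in untreated dermis. Of 13 measured, 1, Xcl1, was higher and 3 lower in lesional over untreated cells, 0 of 9 and 4 in imiquimod over untreated cells, and 5 of 13 and 0 in lesional over imiquimod cells, with medians of 0.38, -0.72 and 1.03. The shares of all genes higher and lower were 2.86% and 2.99%, 2.30% and 4.74%, and 14.6% and 4.99%. Xcl1, a chemokine for cross-presenting dendritic cells, had 125, 4.77 and 7.92 CPM in 16, 1 and 1 cells.

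Among activation and checkpoint genes, Ctla4, the inhibitory receptor, had 228 CPM in lesional cells, 265 CPM in imiquimod cells and 63.4 CPM in untreated cells, higher in both inflamed skins, 3.60-fold (1.80 to 8.43) and 4.19-fold (2.08 to 9.85). Tnfrsf4, the costimulator OX40, had 106, 516 and 285 CPM, and Tnfrsf9, the costimulator 4-1BB, had 52.2, 353 and 238 CPM. Both were lower in lesional than in either other library's cells, and lesional Tnfrsf4 was 0.206-fold the imiquimod level (0.165 to 0.254). The untreated levels rest on few cells: 1 cell held 17 of 36 Tnfrsf4 UMIs and 1 cell 11 of 30 Tnfrsf9 UMIs. Tnfrsf4 had a UMI in 49 of 202 lesional and 5 of 26 untreated cells. Cd27, a costimulator gene, had 53.1, 65.1 and 262 CPM and the ligand gene Tnfsf11 39.0, 12.7 and 151 CPM, both lower in both inflamed skins. At least 1 UMI of both Ctla4 and Ikzf2, a factor common in regulatory T cells, was found in 14 of 202 (6.93%), 26 of 93 (28.0%) and 2 of 26 (7.69%) cells, and 12 of the 26 imiquimod cells were Cd4 cells. Of the list 1 of 18 was higher and 5 lower in lesional over untreated cells, 1 of 17 and 5 in imiquimod over untreated cells, and 4 of 18 and 3 in lesional over imiquimod cells. Beside the all-gene shares of 2.86% and 2.99%, 2.30% and 4.74%, and 14.6% and 4.99%, these are few genes, and the higher counts lie close to the background.

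Among T-cell receptor signalling genes, Themis, needed for T-cell development, had 76.1, 7.94 and 0 CPM in lesional, imiquimod and untreated cells. Lesional over imiquimod cells had 6 of 17 higher, among them Fyn, Cd28, Cd6, Themis and Ptprc, and 1 lower, Ptprcap, against 14.6% and 4.99% of all genes; the list's median log2 ratio was 0.48 and that of all genes 0.43. Lesional over untreated cells had 2 of 17 higher, Themis and Ptprc, and none lower (2.86% and 2.99% of all genes), and imiquimod over untreated cells had 1 of 15 higher, Ptprcap, and 2 lower, among them Cd28 (2.30% and 4.74%). Imiquimod cells were thus the lowest for Cd28 in both of their comparisons.

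Heat-shock RNA was high in the lesional library, in its T cells and in its CD3-free barcodes. Hspa1b, an inducible chaperone gene, had 14875 CPM in lesional cells, 1107 CPM in imiquimod cells and 547 CPM in untreated cells, and CD3-free barcodes of the same libraries had 6866, 1068 and 1301 CPM. The lesional level was 13.4-fold the imiquimod level (12.5 to 14.5) and 27.2-fold the untreated level (21.5 to 35.0). Of 30 immediate-early and dissociation-stress genes, 16 were higher and none lower in lesional over imiquimod cells, 8 and 1 in lesional over untreated cells, and 3 and 5 of 29 in imiquimod over untreated cells, with medians of 0.86, 0.39 and -0.53. Over all genes 14.6% and 4.99%, 2.86% and 2.99%, and 2.30% and 4.74% were higher and lower in these comparisons. The list moves with tissue dissociation as well as with signalling, and lesional skin was digested whole; the part of dissociation in these values was not tested.

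The remaining lists are given by their counts, to be read beside the shares of all genes higher and lower, 2.86% and 2.99% in lesional over untreated cells, 2.30% and 4.74% in imiquimod over untreated cells, and 14.6% and 4.99% in lesional over imiquimod cells. Interferon-stimulated genes had 5 of 28 higher and none lower in lesional over untreated cells, 3 of 21 and none in imiquimod over untreated cells, and 5 of 28 and 2 in lesional over imiquimod cells; Ly6a, Sca-1, had 329, 1768 and 39.6 CPM, and Ifit1 rested on 1 cell with 78 of 83 UMIs. Cell-cycle genes had 1 of 23 higher and 6 lower, 0 of 20 and 8, and 2 of 22 and 0 in the same comparisons, and Stmn1, a microtubule regulator, had 167, 85.8 and 705 CPM, of which 1 untreated cell held 59 of 89 UMIs. Glycolysis genes had 0 of 15 higher and 1 lower, 0 of 15 and 1, and 0 of 15 and 3, the last being Ldha, Pkm and Slc16a3. Survival and cytokine-receptor genes had 3 of 18 higher and 3 lower, 0 of 17 and 5, and 5 of 18 and 0; Bcl2, an inhibitor of apoptosis, had 167, 44.5 and 47.5 CPM, and Bcl2a1b 308, 300 and 1403 CPM. Gimap genes, small GTPases of lymphocytes, had 2 of 8 higher, 1 of 7 and 2 of 8, and none lower. Trafficking receptors and integrins had 1 of 14 higher and 1 lower, 0 of 13 and 1, and 2 of 15 and 1; Itga4, the α4 integrin, had 86.8, 7.94 and 0 CPM, at least 3.65-fold higher in lesional than in untreated cells.

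**Figure D4:**
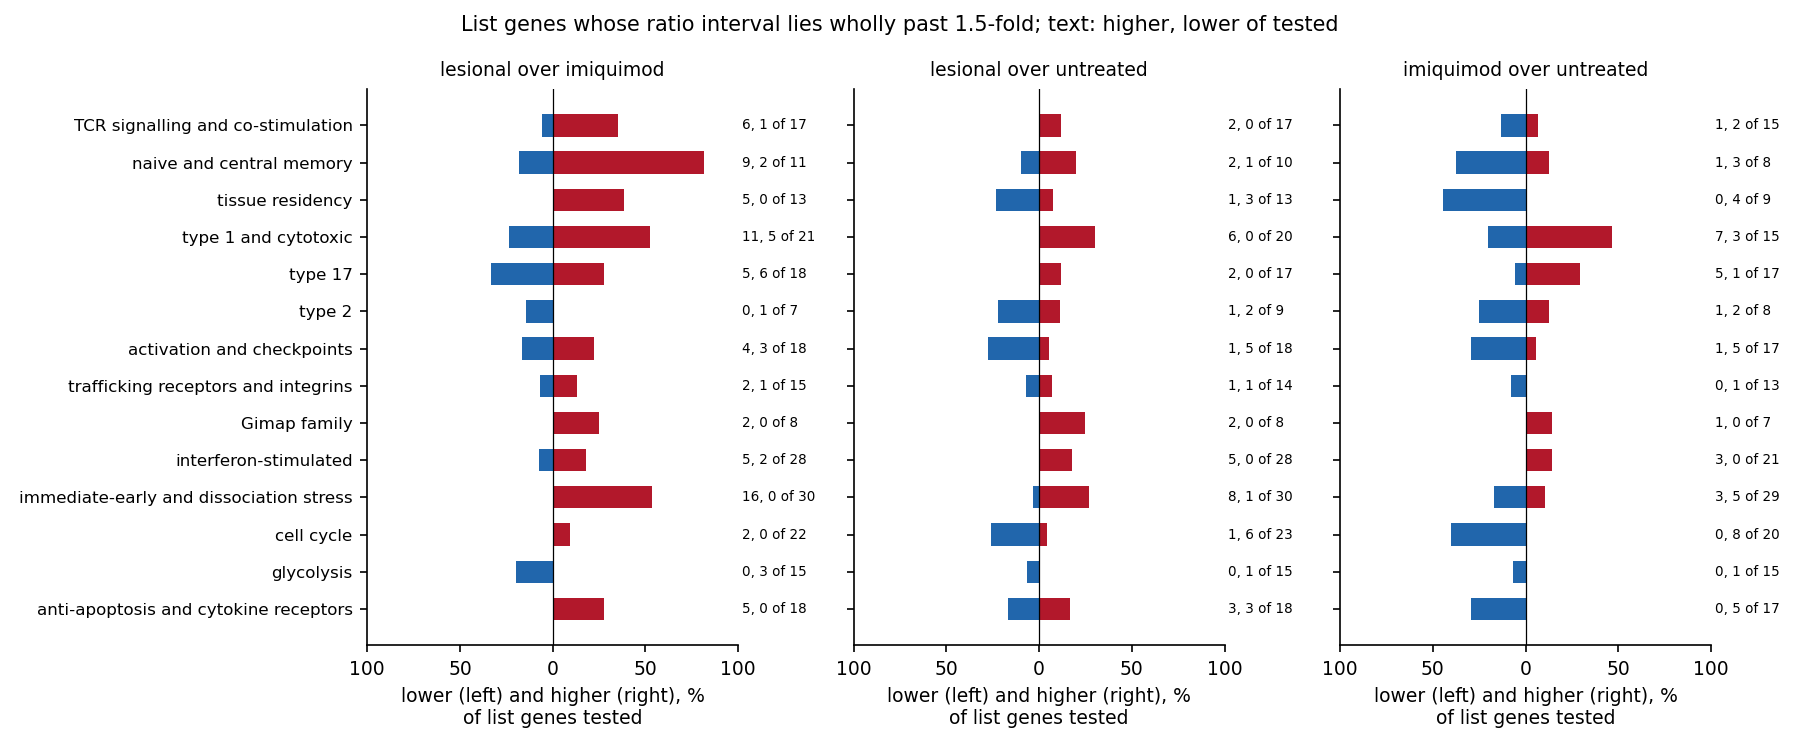
Percentage of measured list genes that were higher (right) or lower (left) in 3 comparisons, with counts of higher and lower genes of those measured beside each bar; called genes are those whose 95% interval of the ratio lay wholly past 1.5-fold. The naive and central memory list, 9 higher and 2 lower of 11, and the stress list, 16 higher and none lower of 30, stand out in lesional over imiquimod cells, where 14.6% of all genes were higher.

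Over all genes, 138 were higher and 284 lower in imiquimod over untreated cells, 236 and 247 in lesional over untreated cells, and 1219 and 417 in lesional over imiquimod cells. With median-of-ratios scaling, which moved the all-gene medians to 0.31, 0.49 and 0.17, these splits became 366 and 130, 410 and 148, and 771 and 688. Without the highest cell of each gene in each library they became 166 and 128, 313 and 93, and 1206 and 379. The balance of directions over all genes thus depends on the scaling and, against untreated cells, on single cells. The counts of list genes lower than in untreated cells carry the same limit. Among the 12 genes furthest up in imiquimod over untreated cells were Ly6a, with 1768 against 39.6 CPM (44.6-fold, 19.1 to 138), and Klrg1, with 73.1 against 0 CPM. Another 7, Ifitm1, Slpi, Gsn, Ifitm3, Alox5ap, Ctsk and Ifi27l2a, had higher CPM in the CD3-free barcodes of imiquimod dermis than in its T cells, for instance 2525 against 763 CPM for Ifitm1. Among the 12 furthest down were Ramp3, a receptor-activity modifying protein gene, with 100.1 against 1561 CPM (0.0641-fold, 0.0475 to 0.0856), and Zbtb16, which encodes PLZF, a factor of innate-like T cells, with 3.18 against 87.2 CPM.

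In lesional over untreated cells Ramp3 was also among the 12 furthest down, with 159 CPM, and the untreated library is shared by both comparisons. Nme2, a nucleoside diphosphate kinase gene, had 31.9 against 650 CPM, and 40.8 against 434 CPM in CD3-free barcodes. In lesional over imiquimod cells the 12 furthest up held Ifng, Hspa1b, Itga4 and Klrc2, an NKG2 family receptor gene, with 56.7 against 3.18 CPM. The 12 furthest down held Il22, Gzmb and Klrg1, and also Tyrobp, the DAP12 adaptor of innate cells, with 23.9 against 729 CPM, and 392 against 3641 CPM in CD3-free barcodes. The rest of the 12 were Alox5ap, Ifitm1, Slpi, Clec4d, Ccl7, Lrrc25, Fcgr2b and Ccl3. Like Tyrobp, each had higher CPM in the CD3-free barcodes of imiquimod dermis than in its T cells, for instance 1180 against 278 CPM for Alox5ap.

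Within the lesional library, cytotoxic genes were higher in Cd8a than in Cd4 cells and IL-17 genes lower. The 26 Cd8a and 76 Cd4 cells are from 1 library, so their difference describes that library. The 100 cells with neither a Cd4 nor a Cd8a UMI also held such RNA, with 202 of 312 Il17a, 38 of 97 Il17f, 705 of 1670 Ccl5 and 85 of 208 Ifng UMIs. Ccl5 had 5884 CPM in Cd8a cells and 301 CPM in Cd4 cells, a 19.5-fold difference (16.2 to 23.6). Gzmb had 297 and 4.53 CPM, from 42 and 2 UMIs, and Nkg7, a cytotoxic granule gene, had 1570 and 204 CPM, 7.70-fold higher (6.00 to 9.95). Of 18 measured type 1 and cytotoxic genes 13 were higher and none lower in Cd8a cells, where 1.49% and 2.25% of all 6188 genes were, and the list's median log2 ratio was 2.49 against -0.11 over all genes. Others of the 13 were Ctsw, a protease gene of cytotoxic cells, with 905 and 97.4 CPM, Klrd1 (CD94), with 325 and 22.7 CPM, Tbx21, with 141 and 24.9 CPM, and Prf1, perforin, with 70.7 and 6.80 CPM. Ifng had 417 and 145 CPM, 2.88-fold higher (1.99 to 4.16), and it reversed among cells without Xist, to a log2 ratio of -1.08.

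Of 15 measured type 17 genes 7 were lower and none higher in Cd8a cells, where 2.25% and 1.49% of all 6188 genes were. The list's median log2 ratio was -2.47, or -1.65 at the bound, and that of all genes -0.11. Il17a had no UMI in Cd8a cells and 249 CPM in Cd4 cells, from 110 UMIs in 10 cells, and Il17f had no UMI and 134 CPM, so the Cd8a level was at most 0.0851 and 0.159 of the Cd4 level. Maf had 49.5 and 598 CPM. The others were Tmem176a, Tmem176b, Il18r1 and Serpinb1a, of which 1 Cd4 cell held 77 of 100 Serpinb1a UMIs. The costimulator Tnfrsf4 had 0 and 213 CPM, Areg 0 and 460 CPM, and Ccr4, a skin-homing receptor gene, 0 and 63.4 CPM, all lower in Cd8a cells.

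Residency genes included Itgae, with 347 CPM in Cd8a cells and 58.9 CPM in Cd4 cells, 5.88-fold higher (3.59 to 9.86), and Xcl1, with 163 and 2.27 CPM, the Cd4 level being 1 UMI (71.8-fold, 11.7 to 2958). Of 13 measured, 4 were higher and 1, Ahr, was lower, where 1.49% and 2.25% of all 6188 genes were. Cd69 had 262 and 301 CPM, a ratio of 0.868 (0.586 to 1.26). Cd160, a receptor gene of cytotoxic lymphocytes, had 198 and 0 CPM, at least 29.1-fold higher. Cd8b1 followed the choice of cells, with 19 of 26 Cd8a cells and 1 of 76 Cd4 cells holding it. No naive, cell-cycle, glycolysis or survival gene passed in either direction, of 9, 20, 14 and 18 measured. Keratinocyte markers were lower in Cd8a cells for 6 of 8 measured, and γ-chain RNA was present in 8 of 26 Cd8a and 6 of 76 Cd4 cells. Without the cells holding RNA of another type, 26 Cd8a and 73 Cd4 cells were left. Genes higher and lower in Cd8a cells were then 92 and 92, against 92 and 139 with all cells. The part of the removed Cd4 cells in the keratinocyte count was not tested.

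**Figure D5:**
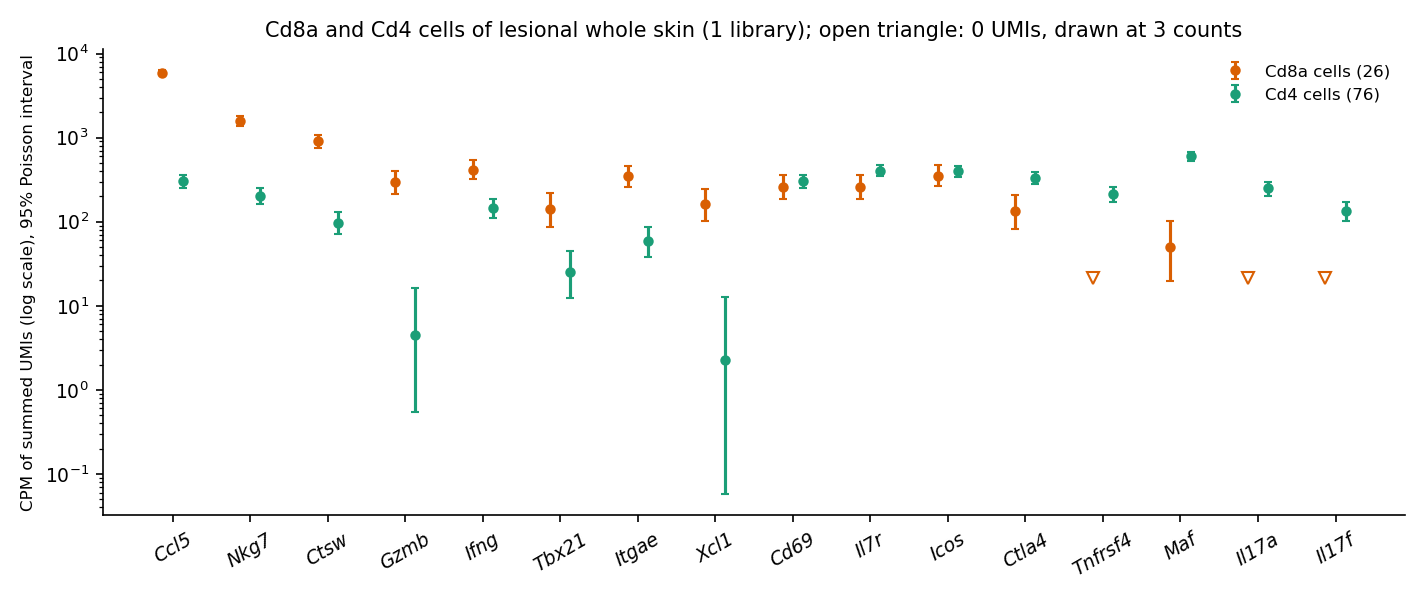
CPM of summed UMIs (log-scale y axis, 95% Poisson intervals) of 16 genes in 26 Cd8a cells and 76 Cd4 cells of lesional whole skin; an open triangle marks 0 UMIs, drawn at the limit of 3 counts. Ccl5, Nkg7, Ctsw and Gzmb are higher in Cd8a cells, Maf, Tnfrsf4, Il17a and Il17f in Cd4 cells, and Cd69, at 262 and 301 CPM, in neither.

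Cd4 cells could also be compared between the inflamed skins, 76 in lesional whole skin and 25 in imiquimod dermis. Il17a was held by 10 of 76 lesional Cd4 cells, with 110 UMIs, and by 0 of 25 imiquimod Cd4 cells. In summed UMIs it was at least 12-fold higher in lesional cells, taking the floor of 3 counts for imiquimod cells. UMIs of 1 cell are not independent and 25 cells are few. The bound therefore does not show that a smaller share of imiquimod Cd4 cells held Il17a. Ifng had 145 and 27.7 CPM, 5.24-fold higher (1.95 to 19.8), Maf 598 and 125 CPM, and Tcf7 168 and 41.5 CPM. In summed UMIs lesional Cd4 cells were thus higher for these 4 genes, the opposite direction for Il17a to that over all Trac/Trbc T cells. Il22 had 2.27 and 699 CPM, of which 1 imiquimod cell held 100 of 101 UMIs, and Gzmb had 4.53 and 623 CPM, from 2 and 16 cells with it. Tnfrsf4 had 213 and 1335 CPM, Tnfrsf9 68.0 and 789 CPM and Ikzf2 58.9 and 567 CPM, all lower in lesional Cd4 cells, and Ctla4 had 331 and 595 CPM and did not pass. Type 17 genes had 7 of 16 higher and 2 lower, with a median of 1.83, or 1.0 at the bound, type 1 and cytotoxic genes had 6 of 15 higher and 4 lower, and stress genes 14 of 30 higher and none lower, where 5.47% of all 6070 genes were higher and 3.21% lower with a median of 0.35. Regulatory T-cell markers had 4 of 6 lower and none higher in lesional Cd4 cells. At least 1 UMI of both Ikzf2 and Ctla4 was held by 5 of 76 lesional and 12 of 25 imiquimod Cd4 cells. The Cd4 cells compared were thus unlike in this respect, and its part in the ratios was not tested.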

How the data were processed

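The values are raw UMI counts per gene and barcode from the authors' deposited matrices, unnormalised; per the submitters' processing notes CASAVA, Cell Ranger and the mm10 build were used, and per the file headers the matrix software was version 3.0.2. Filters beyond that, and any removal of doublets, are not given in the sources used here. Of 31053 gene IDs 31011 were in GENCODE M21.

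From the counts, each gene's UMIs were added up per library and group of cells and scaled to CPM, with exact Poisson intervals. Shares have exact Clopper-Pearson intervals. Ratios of summed UMIs have exact conditional binomial intervals; log2 ratios use a pseudocount of 5 CPM. Genes needed 10 UMIs over both groups and 10 CPM in either. A call needs the whole interval beyond 1.5-fold. Since each group is 1 library, no count model or test was run and intervals cover counting error only; UMIs of 1 cell are not independent of each other. Barcode totals were 34376558, 41258087 and 3020790 UMIs in 3443, 5376 and 584 barcodes of lesional whole skin, imiquimod dermis and untreated dermis. Doublets were limited only by the C1q limit; Scrublet was an alternative. C1q macrophages held at least 10 C1q UMIs and no CD3 UMI, and CD3-free barcodes no Cd3d, Cd3e or Cd3g UMI.

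The cells, the gene lists and the comparisons were chosen with earlier results of these data known. Per comparison the 12 highest and 12 lowest genes were eligible for naming if they had at least 50 CPM in the higher group, an interval wholly beyond 2-fold, UMIs in at least 5 cells, no cell with over 30% of UMIs and at least 0.2 times the CPM of CD3-free barcodes there. Not eligible were Xist, Y-linked genes, genes of the rule, and mitochondrial, ribosomal, haemoglobin, immunoglobulin, receptor-segment or predicted genes and, in their own comparison, Cd4 and Cd8a, a step added after values were seen. To these come the genes furthest apart in each list and 16 genes named throughout; some further called list genes are named where a count is spelled out, and a few genes that enter the counts are not reported here. The ratio script was tested on simulated counts. Tools were Python 3.11.15, numpy 2.4.6, scipy 1.17.1, pandas 2.3.3, scanpy 1.11.5 and matplotlib 3.10.9.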

Additional observations from a re-analysis of the deposited data

Results flagged for a closer look

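The same rule was applied to the 2 epidermis libraries, which entered none of the comparisons. In the epidermis library from K5. Pp6fl/fl mice without lesions, aged 10 weeks, 30 of 2873 kept barcodes met it (1.04%, 0.706 to 1.49), and in untreated epidermis of wild-type mice aged 10 weeks 0 of 905 did, which allows a share of up to 0.331%. The result was picked out because barcodes of a library outside the comparisons exceeded the count in the untreated one. Of the 30 cells 6 held a Trac UMI, 17 a γ-chain constant UMI and 2 a coreceptor UMI, and the 2 libraries also held 2105 and 386 Trdc T cells. Whether the 30 are Trdc T cells whose Trdc RNA was missed was not tested.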

How the results depend on the processing

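Each group is 1 library, so leaving out a replicate was impossible. No paired analysis was possible because each group is 1 library, so the groups share fewer than 2 replicate numbers. Removing cells with RNA of another type, cells with Xist, or all but Cd4 cells were alternatives chosen after seeing the data. The share of Trac/Trbc T cells was 6.07%, 6.30% and 9.01% in lesional whole skin with γ-chain constants at 0, Trac of at least 1, and 1 CD3 and 1 receptor UMI, and 1.38%, 1.34% and 2.77% in imiquimod dermis; with C1q at 0 it was 0.701% in imiquimod and 3.07% in untreated dermis. The Cd4 share was 18.6% in lesional and 7.23% in imiquimod cells after thinning, 18.1% in imiquimod cells with 1 CD3 and 1 receptor UMI, and 0 in untreated cells with C1q at 0; the untreated Cd8a share was 0 after thinning or with γ constants at 0. Genes past 1.5-fold were 272, 241 and 93 with γ constants at 0, C1q at 0 and thinning in imiquimod over untreated cells, where the total was 422. They were 292 and 150 with γ constants at 0 and thinning in lesional over untreated cells, where it was 483. They were 714, 434 and 527 with C1q at 0, thinning and Cd4 cells only in lesional over imiquimod cells, where it was 1636, and 47 and 143 with thinning and without Xist cells in Cd8a over Cd4 cells, where it was 231. Thinning and smaller cell groups leave fewer UMIs; no other cause was tested.

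Log2 ratios reversed as follows. In imiquimod over untreated cells Pclaf was 0.20 with γ constants at 0, Igfbp4 -0.77 without cells holding other RNA, the type 2 median 0.66, 0.42, 0.91 and 0.40 with C1q at 0, thinning, no top cell and no filter, and the activation median 0.000739 after thinning. In lesional over imiquimod cells Il17a was 2.77, 0.47 and 5.67 with γ constants at 0, C1q at 0 and Cd4 cells only; Cd4 cells only also gave Il17f 2.43, Gzmc -1.25 and Lef1 -0.020; Gzma was 1.21 with Trac of at least 1; and Gzmc was -1.66 and Ifit1 -0.31 without Xist cells. In Cd8a over Cd4 cells without Xist Ifng was -1.08 and Isg15 0.30. Of the remaining values for single genes 3578 stayed within the spread of counting and 449 moved without reversing, and of those for lists 856 and 38. The 26 untreated cells, at 7.92 CPM per UMI, limit both comparisons with untreated dermis.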

Other observations

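Cells with neither a Cd4 nor a Cd8a UMI were 100 of 202 lesional, 64 of 93 imiquimod and 23 of 26 untreated Trac/Trbc T cells, of which 5, 3 and 2 held Cd8b1. The 64 imiquimod cells held all 569 Il17a UMIs and 2296 of 2397 Il22 UMIs of that library's Trac/Trbc T cells, whereas the 100 lesional cells had 369 CPM of Il17a, 1289 CPM of Ccl5 and 155 CPM of Ifng. Fcer1g, the Fc receptor γ chain, had a UMI in 53 of the 64 imiquimod cells and 9 of the 100 lesional cells; it had 670 CPM in imiquimod and 110 CPM in lesional cells, and 4459 and 2468 CPM in the macrophages of the same libraries.

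Of the 23 imiquimod cells with at least 3 type 17 cytokine UMIs, 22 held Il22, 16 held Blk and 16 held Trac, while 0 of the 18 lesional cells held Il22 and 1 held Blk. Foxp3 T cells of imiquimod dermis also held Il22, at 513 CPM, of which 1 cell held 119 UMIs.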
